A study of Mus musculus with 15 samples.

Results

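Mammalian CpG methylation is written and copied by a small set of proteins. Dnmt1 copies the mark onto the new DNA strand after replication, and Uhrf1 brings Dnmt1 to half-copied sites by binding hemimethylated CpGs and ubiquitinating histone H3. Dnmt3a and Dnmt3b place the mark on unmethylated DNA, Dnmt3l is a partner of both that has no catalytic activity of its own, and Uhrf2 is a paralog of Uhrf1. These 6 genes, taken by name, were followed in kidney at the level of messenger RNA and at the level of the methylation of their own loci. They are 6 of the 46517 genes in the count files. Their loci, each with 2 kb on both sides, hold 1909 of the 4944536 CpG positions that had at least 1 call in any bisulfite library.

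All mice were C57BL/6. Controls were newborns (postnatal day 0) of genotype Dnmt1 f/f, with floxed Dnmt1 alleles and no Cre. Knockouts (KO) were newborns of genotype Six2Cre Dnmt1 f/f, so controls and KO share the floxed alleles and differ in the Cre. Adults were wild type, 6 weeks old, and carry no floxed allele, so age and genotype cannot be told apart between adults and controls. Reduced representation bisulfite sequencing (RRBS), which reads CpG methylation in CpG-rich restriction fragments, was available for 3 controls, 3 KO and 3 adults. Messenger RNA sequencing was available for 3 controls and 3 KO, with no adult. Nothing in the labels ties an RNA sample to an RRBS sample or states that replicates are separate animals, and p-values here measure the spread between these samples. Six2 drives Cre in nephron progenitors and hence in the nephrons that descend from them, and the stroma, ureteric bud, vessels and blood cells of the kidney keep an intact Dnmt1. The labels name Six2-positive kidney cells as the source, while their protocol has DNA drawn from entire kidneys. In the control RNA, Six2 ran from 41.4 to 107 CPM (gene counts scaled to library size by the TMM method), the tubule markers summed to 2433 to 4549 CPM and the endothelial markers to 552 to 797 CPM, so transcripts of other kidney cells were present alongside Six2. In bulk samples, fewer cells of a type and less RNA per cell cannot be told apart.

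The RNA libraries held 26773937 to 34102567 gene counts, and the RRBS libraries held 18424875 to 88765177 calls. KO 3 was the shallowest RRBS library, with 164 positions of the 6 loci at 10 or more calls, while adult 3 had 951. Results that lean on KO 3 are therefore also given without it.

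These 4 stretches of sequence show start sites of these genes that differ in their number of CpGs, because methylation is described below start by start. Whether the number of CpGs accounts for differences in methylation was not tested. Each is the 250 bases before an annotated start, from RefSeq (GRCm38.p6), written 5′ to 3′ in the direction of transcription with every CpG in capitals. Across 32851 annotated starts of all genes the median number of CpGs in such a stretch was 6 (quartiles 2 and 16). The first annotated start of Dnmt3a (chr12:3806730-3806979, plus strand) has 38, of which 9 carried enough calls to compare controls with adults.

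Dnmt3a first start: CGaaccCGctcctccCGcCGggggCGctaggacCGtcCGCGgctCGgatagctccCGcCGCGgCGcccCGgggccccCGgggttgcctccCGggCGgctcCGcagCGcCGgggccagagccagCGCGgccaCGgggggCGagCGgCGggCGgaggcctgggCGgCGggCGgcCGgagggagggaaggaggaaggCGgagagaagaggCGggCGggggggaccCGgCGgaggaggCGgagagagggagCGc

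The internal start of Dnmt3a (chr12:3891494-3891743, plus strand) lies within the gene and has 15 CpGs, 2 of them measured. As background, a shorter Dnmt3a protein, Dnmt3a2, is made from an internal promoter of this gene. Positions around this start were higher in adults, 1 of them within the printed stretch and the others downstream of the start.

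Dnmt3a internal start: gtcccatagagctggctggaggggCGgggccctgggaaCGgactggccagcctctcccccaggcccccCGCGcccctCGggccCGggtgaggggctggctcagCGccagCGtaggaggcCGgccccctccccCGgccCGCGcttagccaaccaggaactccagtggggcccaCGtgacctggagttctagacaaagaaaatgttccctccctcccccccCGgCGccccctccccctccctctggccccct

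The stretch before the second annotated start of Uhrf1 (chr17:56304063-56304312, plus strand) has 30 CpGs, 5 of them measured, and stands for the starts that were near 0% in all 3 groups.

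Uhrf1 second start: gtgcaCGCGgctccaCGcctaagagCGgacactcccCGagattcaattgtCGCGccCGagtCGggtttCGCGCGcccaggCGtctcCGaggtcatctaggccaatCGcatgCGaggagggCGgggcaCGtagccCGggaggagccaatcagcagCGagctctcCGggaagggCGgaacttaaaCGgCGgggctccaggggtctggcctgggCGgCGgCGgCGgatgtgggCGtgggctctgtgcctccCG

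The stretch before the most distal start of Dnmt1 (chr9:20959889-20960138, minus strand) has 2 CpGs, neither of them measured, and is shown as a start with few CpGs. The only position measured within 1 kb of it lies 992 bases downstream and was methylated.

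Dnmt1 distal start: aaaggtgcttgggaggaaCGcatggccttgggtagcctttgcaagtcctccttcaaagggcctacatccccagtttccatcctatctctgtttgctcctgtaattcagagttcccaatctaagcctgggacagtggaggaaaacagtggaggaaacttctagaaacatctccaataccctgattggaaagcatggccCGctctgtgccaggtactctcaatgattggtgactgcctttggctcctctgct

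Dnmt1, the targeted gene and the maintenance methyltransferase (ENSMUSG00000004099.14, GRCm38 chromosome 9, 20907206 to 20959888, minus strand), was the only one of the 5 tested genes to pass the test in RNA, and it fell. Its levels were 180, 156 and 188 CPM in controls 1 to 3 and 110, 111 and 93.7 CPM in KO 1 to 3. Every KO library lay below every control, and the lowest was KO 3. The log2 fold change was -0.74 (SE 0.12, 95% interval -1.02 to -0.45), a change of -40.04% against the control level (edgeR quasi-likelihood test, Benjamini-Hochberg adjusted p = 0.00577). Over all 18132 genes tested, 8.23% were lower and 6.36% higher in KO, with a median log2 fold change of -0.00074. Counts were made over the entire gene, and the labels do not say which exons are floxed, so transcripts that lack the deleted exons may still be counted. The 3 genes whose log2 CPM followed that of Dnmt1 most closely over the 6 samples were Selenoo (Pearson r 0.998), Slc25a13 (r 0.997) and Lpcat3 (r 0.997), out of 13251 compared, a description in which the samples share their 2 genotypes.

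Uhrf1, the hemimethylated-CpG reader that partners Dnmt1 (ENSMUSG00000001228.13, chromosome 17, 56303337 to 56323486), did not fall with it. It stood at 127, 134 and 136 CPM in controls and at 163, 171 and 158 CPM in KO. The lowest KO library was above the highest control. Its log2 fold change was 0.31 (SE 0.10, 95% interval 0.08 to 0.54), which did not pass after adjustment over all genes (edgeR adjusted p = 0.0806). It passed with limma voom and quality weights, at 0.35 (adjusted p = 0.0135), and in edgeR without control 3, at 0.33 (adjusted p = 0.0238). These settings called more genes of all kinds. Limma voom called 2442 higher and 2595 lower of 18132. Without control 3 it was 2512 higher and 2561 lower of 18533, against 1153 higher and 1493 lower in the main fit. Dnmt1 and Uhrf1 are both expressed mainly in dividing cells. The ratio of their counts within each library was therefore also taken, which does not depend on library scaling. The log2 ratio of Dnmt1 to Uhrf1 counts was 0.50, 0.22 and 0.46 in controls and -0.57, -0.63 and -0.76 in KO. The groups did not overlap, and the difference was -1.05 (two-sided exact permutation p = 0.1, the smallest that 3 samples against 3 allow). Gene length enters both groups alike, so the difference can be read and the level of the ratio cannot.

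Ratios to genes of dividing cells were taken in the same way. The log2 ratio of Dnmt1 to Mki67, a marker of cycling cells, was -0.97, -0.98 and -0.58 in controls and -1.70, -1.60 and -1.80 in KO, a difference of -0.86 (exact permutation p = 0.1). For Uhrf1 to Mki67 the difference was 0.19 (exact permutation p = 0.3), and the groups overlapped. With Pcna, the replication clamp, the difference was -0.62 for Dnmt1 (p = 0.1) and 0.43 for Uhrf1 (p = 0.3), both by the exact permutation test. The log2 ratio of Dnmt1 to Pcna was 0.23, -0.17 and 0.83 in controls and -0.22, -0.19 and -0.53 in KO. Control 2 thus lay just above KO 2, and control 3 was the highest. These 5 ratios were not adjusted for their number, and with 3 samples against 3 none can pass 0.05.

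Dnmt3a, which methylates DNA de novo (ENSMUSG00000020661.14, chromosome 12, 3801559 to 3914443), overlapped between the groups. Its levels were 198, 166 and 210 CPM in controls and 200.1, 221 and 177 CPM in KO. The log2 fold change was 0.06 (SE 0.14, 95% interval -0.26 to 0.38, edgeR adjusted p = 0.840), and its sign turned to -0.04 without control 2 and to -0.03 without KO 2. A gene-level count cannot separate transcripts of the first start from those of the internal start.

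Dnmt3b, the other de novo enzyme (ENSMUSG00000027478.14, chromosome 2, 153649411 to 153687730), stood at 21.7, 23.5 and 22.2 CPM in controls and at 17.8, 21.1 and 18.3 CPM in KO. The KO libraries lay just under the controls without overlap. The log2 fold change of -0.23 (SE 0.14, 95% interval -0.55 to 0.08) did not pass (edgeR adjusted p = 0.320). Uhrf2, the Uhrf1 paralog (ENSMUSG00000024817.12, chromosome 19, 30030430 to 30093726), had 90.6, 83.2 and 76.4 CPM in controls and 94.5, 108 and 108 CPM in KO. Here too the groups did not overlap, with KO above control, and the log2 fold change of 0.31 (SE 0.11, 95% interval 0.05 to 0.57) did not pass (edgeR adjusted p = 0.112). Dnmt3l (ENSMUSG00000000730.12, chromosome 10, 78042287 to 78063622), best known from germ cells and early embryos, was close to absent. It had 6, 12 and 10 counts in controls and 26, 9 and 8 in KO, and it was left out of the test by the filter on low counts. The high value was KO 1 alone. Dnmt3c, a rodent relative of Dnmt3b active in male germ cells, had at most 1 count in any library.

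**Figure D1:**
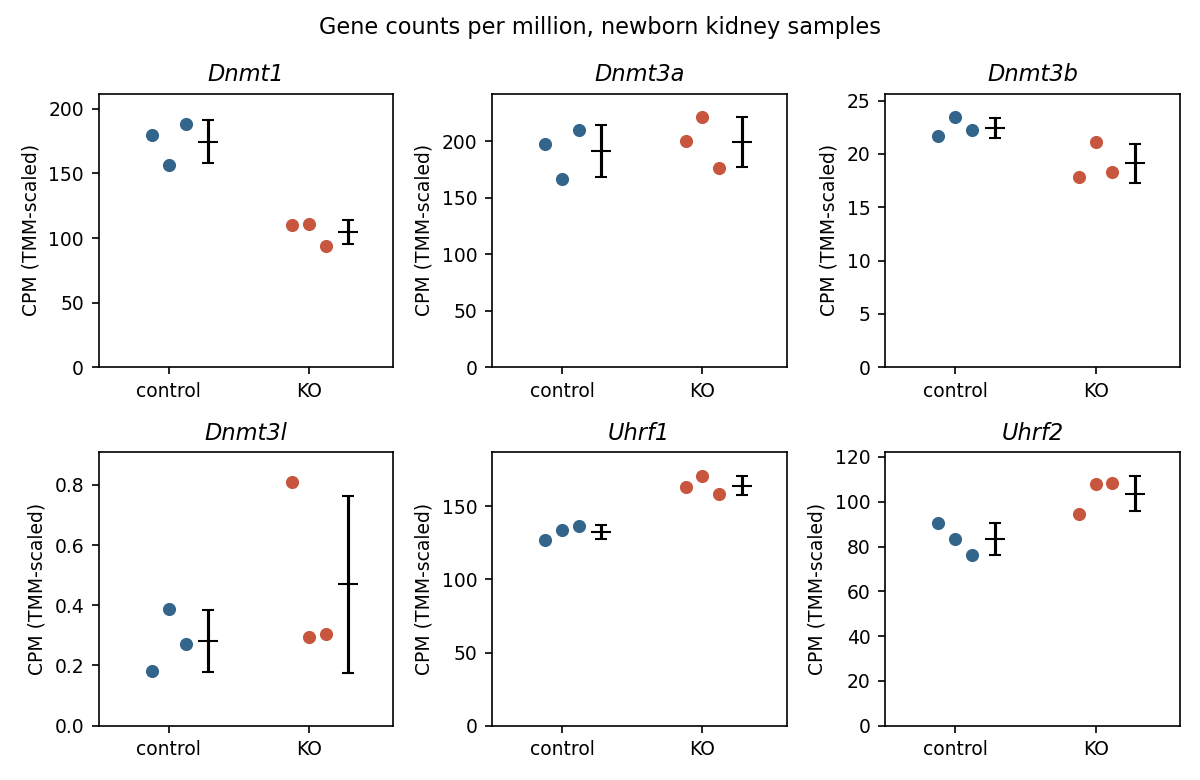
RNA level of each of the 6 genes in CPM (vertical axes, each starting at 0) for controls (blue) and KO (red) at postnatal day 0, 1 point per library, with bars for the mean and SD of 3. Dnmt1 is at 156 to 188 CPM in controls and 93.7 to 111 CPM in KO, Uhrf1 and Uhrf2 sit higher in KO without passing the test, and Dnmt3l stays under 1 CPM.

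The genes that work with these enzymes were counted by role. Of 18 tested partners of maintenance methylation, which include the chromatin remodeller Hells and its cofactor Cdca7, none passed in edgeR, and the median log2 fold change was 0.04. At an unadjusted p under 0.05 there were 3, all higher in KO. Limma voom called 3 higher, DESeq2 called 0, and edgeR without control 3 called 3 higher and 1 lower. Limma voom and the fit without control 3 called more genes of all kinds as well, as given for Uhrf1. The smallest adjusted p belonged to Cdca7, at 65.8 ± 0.573 CPM among controls and 83.0 ± 7.21 CPM among KO libraries (SD, n = 3 each, log2 fold change 0.34, edgeR adjusted p = 0.0717). Dppa3, an oocyte factor that displaces Uhrf1, had no count in any library. Of 10 partners of de novo methylation, which include the H3K36 methyltransferases Nsd1 and Setd2, none passed in edgeR and the median was 0.02. There 1 gene had an unadjusted p under 0.05. DESeq2 called 1 higher, and 2 were called higher by limma voom and by edgeR without control 3. Kdm2b, which binds unmethylated CpG islands, came closest, with a control mean of 99.5 ± 9.61 CPM and a KO mean of 130 ± 2.90 CPM (SD, n = 3 each, log2 fold change 0.38, edgeR adjusted p = 0.0541).

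The methyl donor cycle makes and recycles S-adenosylmethionine. Of its 17 tested genes, 6 fell in KO and 0 rose, with a median log2 fold change of -0.35, where 8.23% of all genes tested fell. Bhmt2, which remakes methionine from homocysteine, went from 21.7 ± 4.03 to 2.50 ± 0.372 CPM (SD, n = 3 each, log2 fold change -3.12, edgeR adjusted p = 0.000123). Mthfd1, an enzyme of the folate cycle, went from 148 ± 15.1 to 83.1 ± 10.5 CPM (SD, n = 3 each, log2 fold change -0.83, adjusted p = 0.00457 in edgeR). Shmt1, the cytosolic serine hydroxymethyltransferase, and Gnmt, which consumes S-adenosylmethionine, also fell (edgeR adjusted p = 0.00556 and 0.00654). Their levels went from 61.2 ± 7.33 to 35.5 ± 3.17 CPM and from 4.10 ± 1.41 to 1.02 ± 0.183 CPM (SD, n = 3 each). Mat2a, the main S-adenosylmethionine synthetase outside the liver, had a log2 fold change of 0.07 (edgeR adjusted p = 0.866). The count of lowered genes ranged from 4 to 8 over the alternatives, with 8 lower and 2 higher without control 3. That fit called 2512 higher and 2561 lower of all 18533 genes it tested.

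RNA of cell type markers moved with genotype beside these results. All 7 tubule markers fell in edgeR, and their sum was 2433 to 4549 CPM in controls against 353 to 433 CPM in KO. The part of this change in the fall of Dnmt1 and of the methyl donor genes was not tested. Of 5 endothelial markers 4 fell, of 6 stromal markers 3 rose, of 6 ureteric markers 2 rose, and of 5 leukocyte markers 1 rose. Of 8 nephron progenitor markers 2 rose and 2 fell. The tubule count was 7 under every alternative, while several other counts changed with 1 library left out. The rises of the ureteric and of the progenitor markers numbered 0 without control 1, KO 1, KO 2 or KO 3 and 1 without control 2, the leukocyte rise was lost without control 1, KO 1 or KO 2, and 2 endothelial markers fell without KO 1 or KO 2. Six2 itself averaged 82.2 ± 35.6 CPM among controls and 94.3 ± 10.2 CPM among KO libraries (SD, n = 3 each, edgeR adjusted p = 0.741). Of 4 germ cell markers tested 3 rose, Dazl among them. The 26 genes of S phase and proliferation had a median log2 fold change of 0.02, and their sum ran from 2196 to 2699 CPM in controls and from 2454 to 2509 CPM in KO. Of these only Rrm2, a subunit of ribonucleotide reductase, passed, and it fell by 0.43 on the log2 scale (edgeR adjusted p = 0.0239). It no longer passed with library size scaling alone or without control 1, KO 1, KO 2 or KO 3 in turn. The list had 5 lower and 1 higher without control 3 and 4 lower and 1 higher with limma voom. Both settings called more genes of all kinds, as given for Uhrf1.

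The loci of the 6 genes lost methylation in KO where they were methylated in controls, as did most gene regions of the genome. Mean methylation over each gene with its flanks, taken over positions with at least 10 calls in all 9 RRBS libraries, was lower in KO at 6 of 6 loci (limma on region means, adjusted p under 0.05). The background was high, since 70.3% of 18509 gene regions were lower and 0.448% higher in KO. The positions were then split into those within 1 kb of an annotated start and the rest of the locus. Away from the starts, 5 of 5 tested loci were lower, against 83.4% of 9233 such regions lower and 0.217% higher over all genes. Whether a position is exonic or intronic was not analysed here.

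At Dnmt3b the 13 positions away from the start averaged 94.7%, 93.7% and 94.2% in controls and 73.7%, 65.4% and 56.6% in KO. The KO values spread over more points than the controls but lay below all of them (difference -29.0 points, SE 3.79, limma adjusted p = 9.07e-05). Uhrf2 was close to this, with 6 positions at 88.6%, 93.6% and 91.3% in controls and at 63.3%, 51.5% and 67.4% in KO (difference -30.5 points, SE 3.77). The 31 positions of Dnmt3a averaged 76.0%, 74.5% and 71.9% in controls and 48.6%, 48.5% and 45.8% in KO (difference -26.5 points, SE 2.18). Dnmt3a thus had the narrowest spread among KO libraries of these loci. For Dnmt3l, with 5 positions, controls were at 95.04%, 90.2% and 93.6% and KO at 72.0%, 56.4% and 79.2% (difference -23.7 points, SE 4.88).

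Over the positions with at least 10 calls in all 9 libraries, the locus of Dnmt1 itself lost the least of the 5. Its 13 positions away from the starts averaged 83.5%, 82.7% and 82.7% in controls and 72.0%, 62.7% and 75.8% in KO (difference -12.8 points, SE 3.22, limma adjusted p = 0.00404). As a share of the control level the loss was 15.4% at Dnmt1, 35.7% at Dnmt3a, 33.4% at Uhrf2, 30.8% at Dnmt3b and 25.5% at Dnmt3l. Over the 6517 regions of all genes with a control mean of at least 50% the median loss was 26.7%, with quartiles of 22.7% and 30.7%. Dnmt1 was below the lower quartile and Dnmt3a and Uhrf2 were above the upper one, while Dnmt3b lay at the upper one. Dnmt1 is also the floxed gene, so its reads in KO may come in other shares from cells with and without the deletion. That was not tested. With each KO library left out in turn Dnmt1 stayed below the lower quartile of the same libraries and Dnmt3a above the upper one. Uhrf2 went under the upper quartile without KO 2, at 28.4% against 29.1%. Dnmt3b went to 26.2% without KO 3, under the median of 27.97%, and Dnmt3l to 18.6% without KO 2, under the lower quartile of 19.7%. These are descriptions with no test of the difference between loci. The Dnmt1 value rests on which positions had the depth. Its 13 include 20958779, 20958786, 20958846 and 20958852, just past the 1-kb cut, with differences of -3.15, -7.25, -3.78 and -10.3 points. The first of these was at 71.5% in controls and 68.4% in KO. They also include 20944147, with a control mean of 5.13%. Positions left out for depth varied. The 3 from 20943740 to 20943774 averaged 93.5%, 80.5% and 88.9% in controls and 48.2%, 49.0% and 45.2% in KO, with 20 calls in KO 3. The 9 from 20908506 to 20908584 averaged 93.5%, 96.6% and 89.5% in controls and 59.8%, 60.5% and 80% in KO. The means of KO 2 and KO 3 used 8 and 4 of these 9 positions, and KO 3 had 33 calls. At 20911541 KO 1 and KO 2 were at 92% and 70.4%, against 93.7% to 100% in controls. The Uhrf1 locus had 1 position away from its starts, at 80.6%, 83.3% and 90.7% in controls and at 31.0%, 50.5% and 57.7% in KO, too few to test as a region. Over its entire locus, where 8 of 9 positions lie near the starts, Uhrf1 went from 10.8% to 5.70% (limma adjusted p = 0.000994). The 8 differed by -0.964 points and did not pass (limma adjusted p = 0.389). The locus call thus rests largely on the same single position, 56319640, at -38.5 points. This call was lost with the quasi-binomial model on summed calls.

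Near the starts the KO values stayed low, and 0 of 5 tested loci passed in limma (0 at an unadjusted p under 0.05, and 0 with the quasi-binomial model on summed calls). The 95% intervals of the 5 differences lay between -3.63 and 2.94 points. Over all genes 4.71% of 7481 start regions were lower and 0.107% higher. The 26 positions around the Uhrf2 start averaged 3.37%, 7.15% and 2.997% in controls and 3.10%, 3.02% and 3.63% in KO. The groups overlapped there, as they did at the other 4. The Dnmt1 start region mixed both kinds of start. At its most proximal start 9 positions averaged 1.06% in controls and 1.88% in KO, while the single position 992 bases from the distal start printed above averaged 86.7% in controls and 83.1% in KO. The start between them, at 20952979, has 7 CpGs in the 250 bases upstream, and its 3 positions compared between controls and adults were at 0% in both. At the first start of Dnmt3l, where the 250 bases upstream hold 5 CpGs, 3 positions compared between controls and adults averaged 81.8% and 81.7%.

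**Figure D2:**
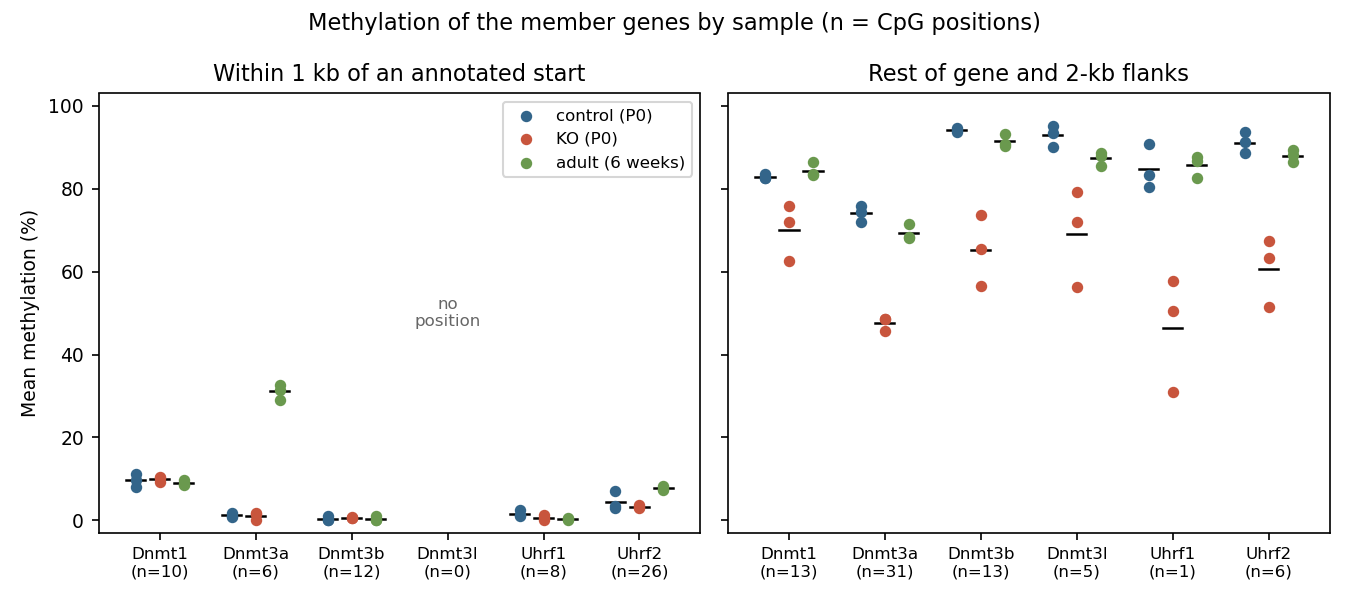
Mean methylation in percent (vertical axis) of each locus within 1 kb of an annotated start (left) and elsewhere in the gene and its flanks (right), 1 point per RRBS library for controls (blue), KO (red) and adults (green), with a line at each mean and n positions under each name. KO points lie below the controls at every locus on the right, while on the left the adults stand apart at Dnmt3a, at 29.1% to 32.7%.

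Of 134 positions that had 10 or more calls in every control and KO library, 47 were lower in KO by at least 10 points at an adjusted p under 0.05 (moderated quasi-binomial model). Higher in KO were 0, also at an unadjusted p under 0.05. Over all 380162 positions tested 35.2% were lower and 0.127% higher, so the loci of the 6 genes sat at the background. The called positions were 21 of 37 at Dnmt3a, 12 of 25 at Dnmt3b, 6 of 34 at Uhrf2, 4 of 24 at Dnmt1, 3 of 5 at Dnmt3l and 1 of 9 at Uhrf1. Both strands of a CpG count as separate positions, and neighbours share reads. Without KO 3 more positions could be tested, and 67 of 288 were lower. The 35.2% above comes from the fit with KO 3 on a different set of positions, so it is no background for that count.

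Grouping positions by their adult level, which enters neither side of this comparison, showed where the loss lay. Where adults averaged 80% or more, 49 positions stood at 90.2%, 91.3% and 89.8% in controls and 68.2%, 60.2% and 66.6% in KO, and 36 were called lower. Their median difference was -25.4 points. Over all 139167 such positions of the genome the median was -23.6 points and 67.5% were called. Where adults averaged under 20%, 1 of 55 was called lower, at 3867011 in Dnmt3a, against 0.837% of 127025 such positions of the genome. Of the 56 positions with a control mean under 10%, which cannot fall by the 10 points a call requires, 0 were called higher by this model and 0 had an unadjusted p under 0.05, where 0.16% of all such positions were called higher.

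The largest drop at each locus was as follows. Position 3911605 of Dnmt3a stood at 80%, 97.6% and 100% in controls and at 54.5%, 42.9% and 27.3% in KO (difference -51.0 points, adjusted p = 0.00242 in the quasi-binomial model). At 153674230 of Dnmt3b the values were 100%, 94.0% and 100% in controls and 75%, 76.2% and 9.09% in KO. KO 3 stood far below the others there with 11 calls, and without it the difference went from -44.6 to -22.4 points. Position 56319640 of Uhrf1 stood at 80.6%, 83.3% and 90.7% against 31.0%, 50.5% and 57.7% (difference -38.5 points, quasi-binomial adjusted p = 7.98e-05). At 30075572 of Uhrf2 the values were 87.5%, 100% and 97.1% against 90.9%, 52.5% and 26.9%. KO 1 lay among the controls at that position, so the groups overlapped although the model called it (difference -38.1 points, quasi-binomial adjusted p = 0.000503). Without KO 3 the difference there was -23.2 points. At 78057330 of Dnmt3l all 3 controls were at 100% and KO at 76.0%, 45.8% and 80%. At 20924288 of Dnmt1 controls were at 100%, 90.7% and 98.5% and KO at 74.3%, 61.7% and 70.0%, the largest drop of that locus at -27.7 points.

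Positions no more than 300 bases apart were taken as a run. Of the 47 called positions 41 lay in 14 runs with at least 1 other called position, and 6 were the only called position of their run. The run with the most calls was in Dnmt3b, from 153676821 to 153676901, where 6 of 6 positions were lower. Its mean was 96.0%, 92.7% and 93.6% in controls, 74.2%, 63.1% and 51.1% in KO and 92.2%, 92.3% and 91.5% in adults. Controls and adults nearly coincided, and the 3 KO libraries were spread below them. In Dnmt3a from 3907695 to 3908020, 5 of 6 tested positions were lower. Over those 6 positions controls were at 76.97%, 75.9% and 69.5%, KO at 47.1%, 47.8% and 49.98%, and adults at 80.1%, 73.5% and 79.7%, so the KO libraries lay close together below both other groups. A further run of Dnmt3a, from 3912465 to 3912594, had 3 of 3 lower, with 91.5%, 86.8% and 77.6% in controls and 53.8%, 56.3% and 42.7% in KO. Without KO 2 the positions 153676821 and 153676863 of the Dnmt3b run no longer passed.

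**Figure D3:**
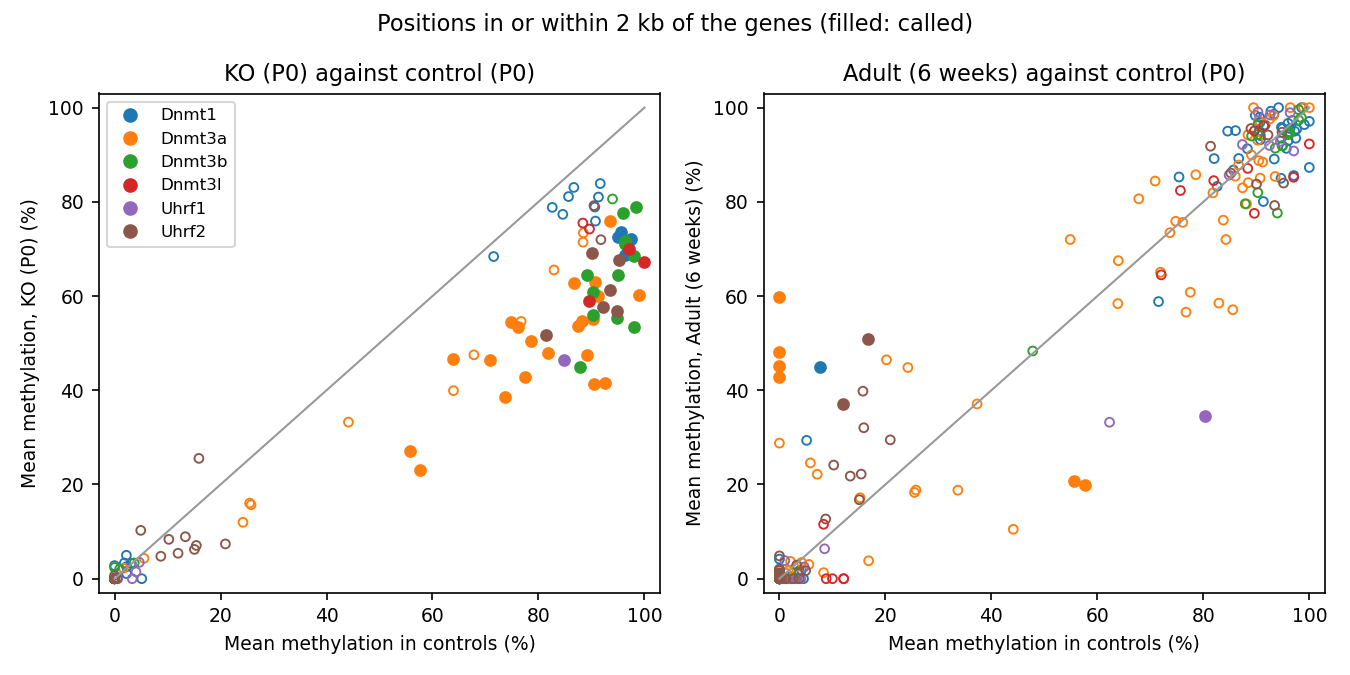
Mean methylation in percent of each CpG position in or within 2 kb of the 6 genes, in KO (left) or adults (right) on the vertical axis against controls on the horizontal axis, coloured by gene and filled where called; the grey line marks equal values. In KO the 47 called positions lie below the line and mostly at the right edge, while the adults scatter on both sides with 10 called.

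Adults differed from newborn controls at few positions of these loci. The controls are those of the KO comparison, so an error in them enters both. Of 294 positions tested 3 were lower and 7 higher in adults, against 1.98% lower and 1.9% higher of 704580 over the genome. The 10 calls became 5 without control 2, 6 without adult 1 and 4 without adult 3. Of the 6 entire loci none passed in limma (background 5.88% lower and 5.15% higher), and of the 5 regions away from starts none passed (background 4.56% lower and 5.36% higher). Of these 11 regions, 0 had an unadjusted p under 0.05 in limma. The quasi-binomial model on summed calls did call the Dnmt3b locus lower, at -14.2 points, and the rest of Dnmt3a lower, at -4.91 points. That model weights positions by their calls, and the near-0% start of Dnmt3b held 19.8% to 24.1% of the calls of its locus in controls and 32.5% to 40.05% in adults. The mean over positions of Dnmt3b differed by -1.43 points, with adults just below all controls (limma adjusted p = 0.780). The part of the shift in calls in the call on summed calls was not tested. For the rest of Dnmt3a the mean over positions differed by -4.78 points (95% interval -9.64 to 0.0904, limma adjusted p = 0.238). Adults lay below all controls there, without passing. The same held for the rest of Dnmt3b (-2.67 points) and of Dnmt3l (-5.49 points), while the groups overlapped at the rest of Dnmt1 and Uhrf2.

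Dnmt3a was the exception at its starts, and the difference lay at the internal start. Of the 5 start regions tested it alone passed, with 1.203% ± 0.597 in controls and 31.1% ± 1.85 in adults (SD, n = 3 each, difference 29.9 points, SE 1.33, limma adjusted p = 2.22e-06), where 2.25% of all start regions were higher and 4.63% lower in adults. Of the 6 positions in that region 5 belong to the internal start. Those 5 averaged 1.11%, 0.741% and 1.48% in controls, 1.54%, 1.05% and 0% in KO and 34.9%, 38.5% and 37.6% in adults. Newborns of both genotypes were thus near 0, and the 3 adults lay within 3.60 points of each other. At the first start of Dnmt3a, 15 positions averaged 0.612% in controls and 0.604% in adults, so the 38-CpG stretch printed above did not share the adult gain. The depth at the internal start was modest, with 66 to 183 calls per library over its 6 positions. The positions 180, 186 and 223 bases downstream of the start each had 11, 12 and 12 calls in adults 1 to 3. The position 66 bases downstream was not among the 5, because KO 3 had 8 calls there. With it, controls averaged 3.53%, 0.932% and 1.23% and adults 38.2%, 33.7% and 32.9%.

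Position by position, the internal start was uneven in adults. Counted from the start, position -77 (3891667) was at 0% in all 6 newborn libraries and at 56.2%, 42.4% and 45.5% in adults (quasi-binomial adjusted p = 0.00114). Position -30 (3891714), the other CpG of the printed stretch that was measured, was at 0%, 0% and 9.09% in adults and at 5.56%, 3.70% and 7.41% in controls. The 2 measured CpGs of the printed stretch thus differed widely in adults. Downstream of the start, position 180 (3891924) was at 0% in all newborns and at 54.5%, 75% and 50% in adults (adjusted p = 0.00258 in the quasi-binomial model). Position 186 (3891930) was at 0% in newborns and at 27.3%, 50% and 58.3% in adults (quasi-binomial adjusted p = 0.0148). Position 223 (3891967) was at 0% in newborns and at 36.4%, 25% and 25% in adults, and it did not pass (adjusted p = 0.0988 in that model). Position 66 (3891810) was uneven between adults, at 54.5%, 9.76% and 9.43%. Positions -77 and 180 stayed called with each control and each adult left out in turn, while position 186 was lost without control 2, adult 2 or adult 3. The region could not be tested at a minimum of 20 calls, because fewer than 5 of its positions had that many. No RNA from adults was measured, so the level of the internal transcript at that age is not known from these data.

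**Figure D4:**
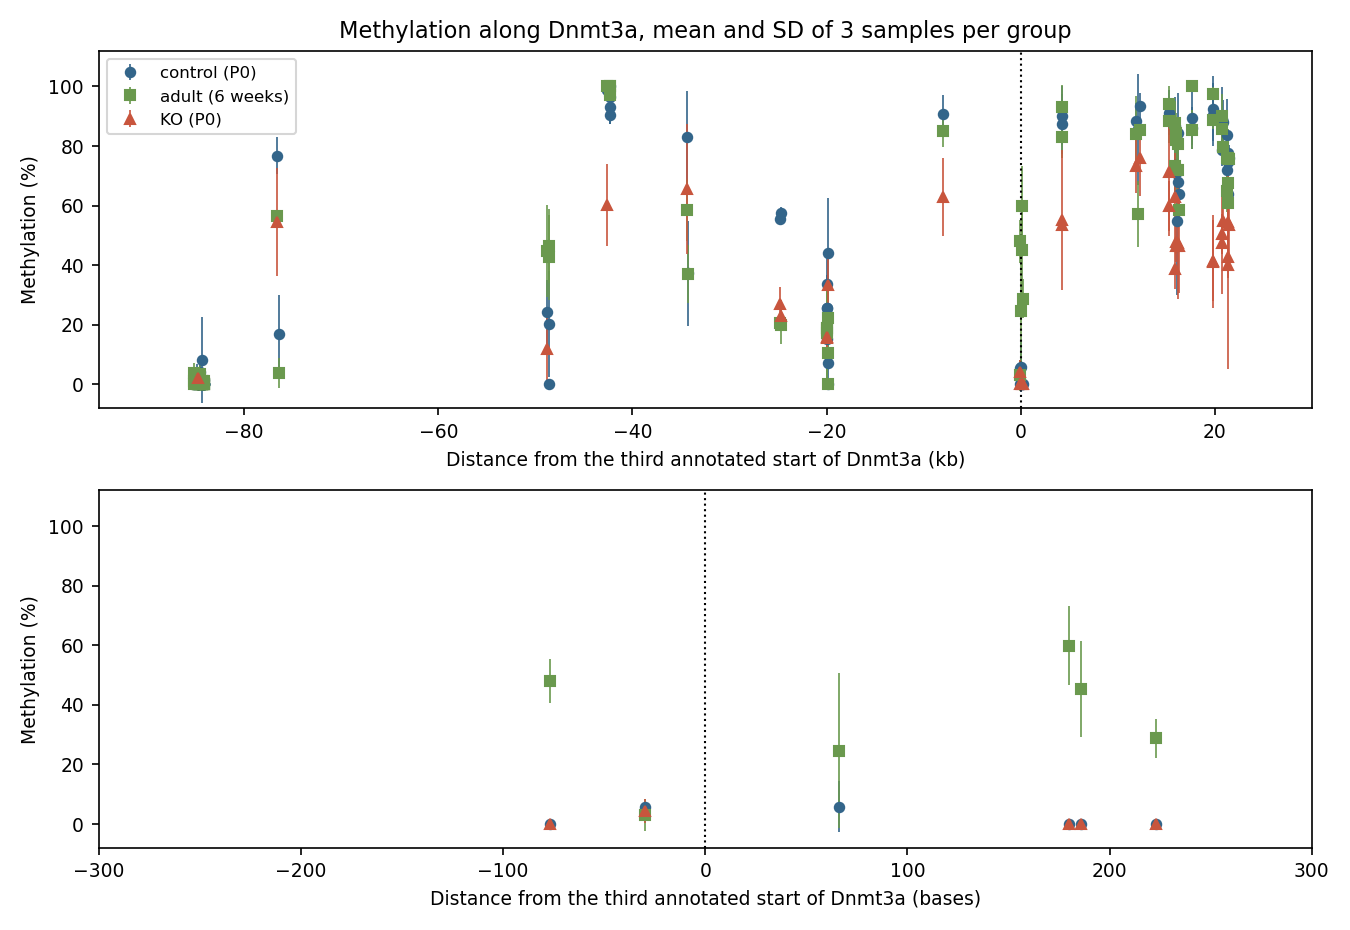
Methylation in percent (vertical axes) along Dnmt3a against the distance from its internal, most downstream annotated start (dotted line), in kilobases over the gene (top) and in bases around the start (bottom), as mean and SD of 3 libraries for controls (blue circles), KO (red triangles) and adults (green squares). At the start the adults rise to 59.8% while controls and KO stay near 0, and further into the gene KO lies below both other groups.

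A second place in Dnmt3a changed in the other direction. Position 3866979, at -24765 from the internal start, stood at 54.5%, 57.1% and 55.3% in controls, 23.5%, 24.6% and 33.3% in KO and 20.6%, 22.2% and 19.1% in adults. Its neighbour 3867011 stood at 58.5%, 59.1% and 55.3% in controls, 22.8%, 17.9% and 28.6% in KO and 17.6%, 26.98% and 15.1% in adults. These were the only 2 positions of the 6 loci called lower in both comparisons, and both comparisons use the same controls. The call at 3867011 in adults was lost without adult 3.

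The remaining positions called in adults were scattered. At Uhrf2, position -509 from the start (30030004) stood at 17.6%, 7.32% and 25% in controls and at 57.7%, 45.5% and 49.2% in adults (quasi-binomial adjusted p = 0.00749), and position -660 (30029853) at 2.86%, 26.8% and 6.33% against 40.4%, 34.4% and 36.7% (adjusted p = 0.0377 in that model). Both belong to a run of 14 positions upstream of the start, whose mean was 9.04%, 15.4% and 7.39% in controls and 22.7%, 21.2% and 19.5% in adults. The adults were above all controls, and control 2 was the highest newborn. The start region of Uhrf2 as a unit had a difference of 3.19 points (95% interval 0.810 to 5.56, limma adjusted p = 0.107), and it passed without control 2, at 4.51 points. At Dnmt1, position 20944236 rose from 6.25%, 10.4% and 6.45% in controls to 57.6%, 34.9% and 42.2% in adults (quasi-binomial adjusted p = 0.0128). In Uhrf1, position 56319832 fell from 69.8%, 80% and 90.9% in controls to 14.3%, 38.6% and 50.9% in adults (adjusted p = 0.00894 in the quasi-binomial model). Dnmt3a had 1 more, 3843139, at 0% in all 3 controls and at 50%, 26.3% and 51.9% in adults. Newborn KO libraries 1 to 3 were at 41.7%, 5% and 0% there, with 12, 20 and 5 calls. The calls at 20944236, 56319832, 30029853 and 3843139 were each lost with at least 3 of the 6 libraries left out in turn.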

How the data were processed

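RNA was analysed from 3 control and 3 KO libraries, and RRBS from 3 control, 3 KO and 3 adult libraries. The authors deposited raw read counts per gene, with lines of unassigned reads (22.9% to 35.8% of all reads in the files) that were left out here. For RRBS the authors deposited a percent of methylated calls at each cytosine together with the 2 call counts behind it. The submitters' processing notes name STAR 2.4.1d, HTSeq 0.6.1, Trim Galore and Bismark, and builds mm10 and GRCm38. Strand setting, filters and roles are not given in the sources used here. Of 330674 positions inside RefSeq promoter windows, 99.6% fell on a CpG of GRCm38.p6.

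Gene counts were tested with edgeR 4.0.16 (TMM, its filter on low counts, quasi-likelihood test) over all 18132 genes that passed. Positions with at least 10 calls in each library compared were tested with a quasi-binomial model whose dispersion was moderated over all positions and not under 1. Calling a position took an adjusted p under 0.05 together with a change of 10 points or more. Region means over at least 5 positions were tested with limma 3.58.1. P-values were adjusted by Benjamini-Hochberg over all features. All 3 fits were tested on simulated data.

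The 6 genes and the lists of related genes and markers were chosen with earlier results of these data known. Named were at most 4 genes per list by adjusted p, the largest called position per locus and direction, and the runs with the most called positions. Mat2a, Six2, Dnmt3c and the other positions named were picked after their values were seen. Alternatives were DESeq2 1.42.0, limma voom, other scalings, count and coverage minimums, flanks, a replicate block and each library left out.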

Additional observations from a re-analysis of the deposited data

How the results depend on the processing

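Dnmt1 remained lower in KO under each of the 12 RNA alternatives. The number of the 6 genes called rose from 1 to 2 with limma voom, and it was 1 to 2 with each library left out. The Dnmt1 to Uhrf1 difference ran from -1.14 to -0.995 with each library left out. The Dnmt3a log2 fold change reversed to -0.0365 without control 2 and -0.03 without KO 2, in a range of -0.0365 to 0.138 with each library left out.

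Positions lower in KO numbered 30 at a minimum of 20 calls and 37 to 67 with each library left out. Positions changed in adults numbered 3 at a minimum of 20 calls, 6 with all 9 libraries in the fit and 4 to 14 with each library left out. Regions called in KO numbered 7 at a minimum of 20 calls, where 7 could be tested, and 11 with each library left out. Regions called in adults numbered 0 at 20 calls, where the Dnmt3a start could not be tested, 3 with the quasi-binomial model and 1 to 2 with each library left out. The Uhrf1 locus in KO was -6.72 points and not called with that model.

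Some small differences that did not pass reversed, and the cause was not tested. In KO, the Dnmt1 start went to -0.125 at 5 calls and -0.410 without control 1, the Uhrf2 start to 0.0703 without control 2, and the Dnmt3a start to 0.230 without control 3 and 0.432 without KO 3. In adults at 20 calls, the Dnmt1, Dnmt3a and Uhrf2 loci went to -2.21, -6.21 and -0.616, and the rest of Dnmt1 to -2.998. With the quasi-binomial model the Dnmt1 and Dnmt3a loci went to -4.70 and -3.97 and the rest of Dnmt1 to -1.07. The Dnmt3b start went to 0.309 without control 1 and 0.0750 without adult 1 or adult 2. The Dnmt1 start went to 0.174 without control 2, and the Dnmt3a locus to -0.0344 without control 3 and -0.0930 without adult 3. With each library left out these ran from -0.410 to 1.16 (Dnmt1 start, KO), -2.005 to 0.0703 (Uhrf2 start, KO), -0.437 to 0.432 (Dnmt3a start, KO), -0.0930 to 1.598 (Dnmt3a locus, adults), -0.388 to 0.309 (Dnmt3b start, adults) and -1.39 to 0.174 (Dnmt1 start, adults).

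With replicate number as a block, the 29 positions lower in KO and 0 changed in adults differed from the fits without pairing. Rrm2 and the 3 positions called at the internal start of Dnmt3a were among the calls it lost, with adjusted p of 0.119 for Rrm2 and from 0.289 to 0.294 for the positions. Of the largest drops per locus in KO, those of Dnmt3a, Dnmt3b and Uhrf2 were lost. The block kept 1 gene and 11 KO regions called and the adult call at the Dnmt3a start region (29.9 points, limma adjusted p = 6.64e-05), and the paired Dnmt1 to Uhrf1 difference was -1.05 (exact sign-flip p = 0.25, the least that 3 pairs can give). Same-numbered RNA libraries had deviations correlated at -0.236, -0.0653 and -0.124, and same-numbered RRBS libraries between -0.0064 and 0.00289. These values showed no pairing by number, and with 3 libraries per group they cannot exclude it. Depth limited KO 3 most.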
